A study of Homo sapiens with 3 samples.

Results

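The genes described here encode 10 kinesins that work in mitosis: KIF11, KIF14, KIF15, KIF18A, KIF20A, KIF20B, KIF22, KIF23, KIF2C and KIF4A. They are a list fixed by name, drawn up with earlier results of these data known, and it does not hold every kinesin of mitosis. Another 6 kinesins that were measured, CENPE, KIFC1, KIF18B, KIF2A, KIF2B and KIF24, are given separately under the list name other kinesins of mitosis. That list was also fixed by name, and the part of each gene in mitosis was not examined in these data. The list name therefore does not establish a mitotic role for each gene on it, KIF24 among them. For each gene the probe sets annotated with that gene alone were averaged. All 10 were found among 18417 genes so defined, and all 10 had a mean level above the filter on dim genes (log2 5.12), which left 12892 genes to be tested. Expression was measured on 3 Affymetrix arrays of LNCaP cells, an established line from a metastasis of human prostate carcinoma. One array came from cells transfected with siSE1, another from cells transfected with siSE2, and the last from cells that received a negative control siRNA, all harvested at 72 hours. Both siSE reagents are siRNAs against SLC45A3-ELK4, a chimeric transcript of the neighbouring genes SLC45A3 and ELK4. All cells were transfected with RNAiMAX and grown in RPMI1640 with serum, and they represent a single cell line. The title of the siSE2 array was followed, although its transfection field names siSE1; if that field is right, both siSE arrays carry the same siRNA. The labels do not say that the arrays come from separate cultures, and errors and p-values therefore reflect only how these arrays vary. That variation may be technical and, if the titles are right, includes any difference between the siRNAs.

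Values are log2 expression per gene, and a difference is the mean of siSE1 and siSE2 minus the control array, so that a negative value is lower with the siRNAs. The array medians were 5.84 with siSE1, 5.84 with siSE2 and 5.80 on the control array. The 6 luminal genes measured, among them KLK3, KRT8, KRT18 and HOXB13, read between 6.39 and 10.7 over the arrays, while the 3 endothelial markers lay between 2.93 and 4.74 and the leukocyte gene PTPRC between 3.17 and 3.22. Basal markers ranged from 4.85 to 6.20, stromal markers from 2.80 to 6.99 and blood cell markers from 3.17 to 7.67. SLC45A3 differed by -0.46 ± 0.15 (SE, n = 2 against 1; limma, adjusted p = 0.154) and ELK4 by -0.18 ± 0.16 (adjusted p = 0.582); neither passed, and whole-gene probe sets of the parents leave the chimera's own level unmeasured.

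Kinesins are motor proteins that walk along microtubules, or take them apart at their ends, using ATP. The mitotic members build the bipolar spindle, move and align chromosomes on it, and organise the central spindle and the midbody through which daughter cells separate. Their transcripts are known to accumulate in the G2 and M phases of dividing cells, under MuvB complexes that act together with B-MYB and FOXM1 in proliferating cells and with E2F4 and RB-like proteins in resting ones. A promoter element called the cell cycle homology region, often next to CCAAT boxes bound by NF-Y, is known to mediate this timing.

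All 10 mitotic kinesins read lower on both siSE arrays than on the control array, as did 41.7% of all genes tested; none of the 10 read higher on both, as 36.4% of genes did. KIF15 and KIF14 fell, by 1.87-fold and 1.86-fold, and the other 8 members missed the threshold. The median difference of the members was -0.51, against -0.02 over all genes tested, and their differences ran from -0.90 to -0.21. By the fit over all genes (limma, adjusted p under 0.05), 0.714% of genes fell and 0.248% rose; of the 10 members 2 fell and 0 rose. At an unadjusted p under 0.05 (limma), 9 members were lower and 0 higher. Of the 12892 genes tested, 1458 (11.3%) were lower and 833 higher by the same rule. KIF15 and KIF14 were also the members at least 1.5-fold lower with each siRNA, a size that 1.53% of genes reached. In bulk RNA, fewer dividing cells and less kinesin RNA per cell cannot be told apart. The fit has 1 residual degree of freedom, and with no filter on dim genes KIF15 and KIF14 no longer passed (adjusted p = 0.124 for both). With the filter at the 50th percentile KIF14 had an adjusted p of 0.0503 and KIF15 was too dim to be tested.

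**Figure D1:**
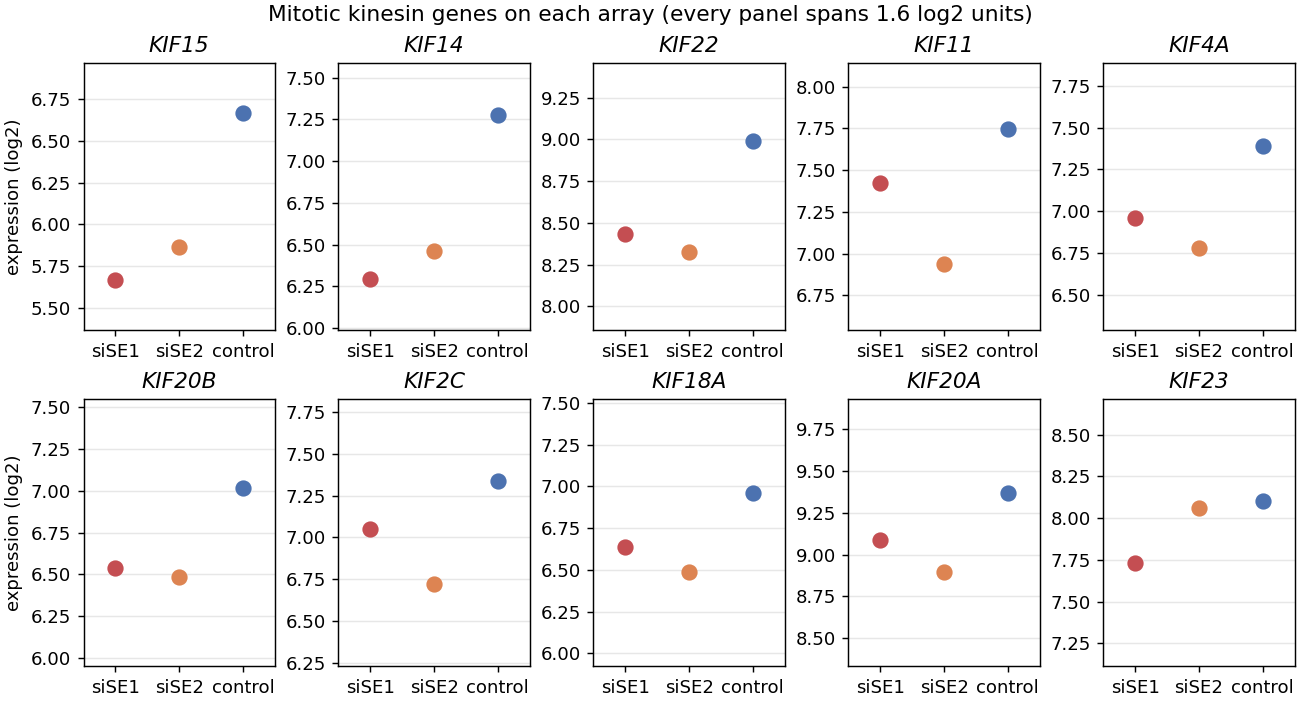
Expression (log2) of each mitotic kinesin gene on the siSE1, siSE2 and control arrays, 1 point per array, with every panel spanning the same 1.6 log2 units. The control point is the highest in all 10 panels, and for KIF23 the siSE2 point, 8.06, lies close to the control point, 8.10.

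The promoters are shown because all members read lower and because these elements lie close to the start of many of them. In the window from 250 bases before to 50 bases after the annotated start, the letters TTTGAA, a form of the cell cycle homology region, were found on either strand in 7 of the 10 members: KIF11, KIF14, KIF15, KIF18A, KIF20B, KIF23 and KIF4A. The same letters were present at 15.5% of 27305 gene starts of the RefSeq table and at 9.40% of the 10244 starts that belong to tested genes. CCAAT was found on either strand in 8 members, all but KIF15 and KIF2C, against 36.3% of the starts of tested genes. Of the genes listed below as partners of the members, 15 of 21 held TTTGAA and 18 of 21 CCAAT. Among the other kinesins of mitosis the counts were 3 and 4 of 7, and among transport and other kinesins 1 and 6 of 21. Neither element was therefore particular to the members. The stretches below are the 150 bases just before the start (GRCh38.p14, RefSeq; 5′ to 3′ on the gene's strand), with TTTGAA and CCAAT, or their reverse complements TTCAAA and ATTGG, in capitals.
KIF15 (chr3:44761644-44761793, plus strand): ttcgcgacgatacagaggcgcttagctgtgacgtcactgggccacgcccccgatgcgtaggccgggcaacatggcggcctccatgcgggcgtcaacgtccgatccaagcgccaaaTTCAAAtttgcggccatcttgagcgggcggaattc
KIF14 (chr1:200620752-200620901, minus strand): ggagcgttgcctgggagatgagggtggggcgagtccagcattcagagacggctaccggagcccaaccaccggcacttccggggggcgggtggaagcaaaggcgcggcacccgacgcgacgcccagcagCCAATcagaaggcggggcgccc
KIF11 (chr10:92592980-92593129, plus strand): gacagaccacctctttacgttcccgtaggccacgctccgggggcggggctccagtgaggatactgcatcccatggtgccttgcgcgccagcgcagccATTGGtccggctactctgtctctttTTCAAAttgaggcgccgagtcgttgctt
KIF18A (chr11:28108157-28108306, minus strand): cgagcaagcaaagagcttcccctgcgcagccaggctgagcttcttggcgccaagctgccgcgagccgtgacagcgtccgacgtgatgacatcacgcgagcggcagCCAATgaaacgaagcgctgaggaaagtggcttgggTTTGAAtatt
KIF4A (chrX:70289954-70290103, plus strand): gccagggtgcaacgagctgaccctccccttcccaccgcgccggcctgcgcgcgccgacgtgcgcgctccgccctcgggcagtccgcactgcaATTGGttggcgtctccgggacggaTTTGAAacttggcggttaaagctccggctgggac
KIF20A (chr5:138178962-138179111, plus strand): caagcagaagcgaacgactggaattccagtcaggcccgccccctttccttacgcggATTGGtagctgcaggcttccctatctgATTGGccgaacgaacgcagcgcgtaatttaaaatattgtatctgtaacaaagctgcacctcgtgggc
KIF15 and KIF14 are printed as the members that passed the test, KIF11, KIF18A and KIF4A as members that hold both elements before the start, and KIF20A as one with CCAAT boxes only. KIF23, the member with the smallest difference, also holds both before the start, with CCAAT at 64 bases and TTTGAA at 55; its stretch is not printed because it overlaps the annotated antisense gene KIF23-AS1. In KIF15 the reverse TTTGAA began 35 bases before the start, directly after the reverse of TTTGGCGC, an E2F site, at 43 bases. KIF14 is printed with CCAAT alone because its TTTGAA began at base 2 of the transcript. In KIF11 the elements began 53 (CCAAT) and 28 (TTTGAA) bases before the start, in KIF4A 58 and 34, and in KIF18A 45 and 10. The CCAAT boxes of KIF20A began at 94 and 67 bases. KIF2C held neither TTTGAA nor CCAAT in this window, and other forms of the cell cycle homology region were not searched.

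**Figure D2:**
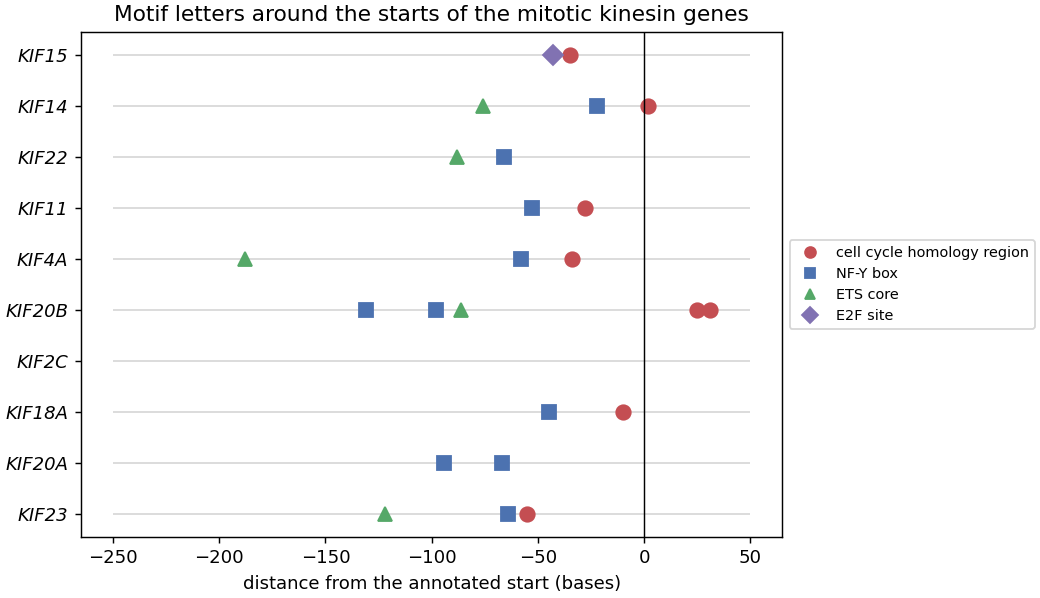
Positions of the searched motifs around the annotated starts of the 10 mitotic kinesin genes; the horizontal axis is the distance of the motif's first base from the start in bases, negative before it, and genes are ordered from the lowest difference at the top. Marks for the cell cycle homology region stand for the letters TTTGAA, the only form of it that was searched. They lie within 55 bases before or 31 bases after the start in 7 genes, and KIF2C has no mark.

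The remaining motifs were each found in fewer members than TTTGAA and CCAAT. TTTGGCGC was found in KIF15 alone among the members (1.02% of the starts of tested genes), and the other E2F form searched, TTTCCCGC, in none of the 10 (2.60%). CCGGAAG, the core of sites for ETS factors such as ELK4, was found on either strand in KIF14, KIF20B, KIF22, KIF23 and KIF4A, 5 of 10, against 18.1% of the starts of tested genes. It was found in 6 of 21 partners, 1 of 7 other kinesins of mitosis and 2 of 21 transport and other kinesins. No motif shares bases with another in these windows. Such matches describe the letters of the window and show no binding. TTTGAA and CCAAT occurred together in 6 members and in 401 of the 10244 tested genes whose start was searched (3.91%). The rest of the 12892 tested genes had no start in the search. The 963 searched genes with TTTGAA, which include 7 members, had a median difference of -0.08 and 16 that fell (1.66%). The 9281 searched genes without it had a median of -0.02 and 56 that fell (0.603%). This difference was not tested. Among the members themselves, the median was -0.52 for the 7 with TTTGAA and -0.45 for the 3 without.

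The motors that set up the bipolar spindle were examined first. KIF15, a plus-end-directed motor that binds TPX2 and can keep spindle poles apart alongside KIF11, read 5.66 with siSE1 and 5.86 with siSE2, against 6.67 on the control array. Both siSE arrays lay far below the control array relative to the gap between them. The difference of -0.90 ± 0.15 (SE, n = 2 against 1; limma, adjusted p = 0.0372) was lower than that of all but 0.396% of genes tested. KIF11, the motor that slides antiparallel microtubules apart and the target of the inhibitor monastrol, read 7.43 with siSE1 and 6.94 with siSE2, against 7.75 on the control array. The siSE arrays did not overlap the control, but siSE1 lay nearer to the control than to siSE2. The KIF11 difference was -0.56 ± 0.20 (SE; limma, adjusted p = 0.185), with an unadjusted 95% interval from -1.01 to -0.12.

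The chromokinesins bind chromosome arms and push them away from the poles. KIF22 read 8.43 with siSE1 and 8.32 with siSE2, against 8.99 on the control array, with a difference of -0.61 ± 0.14 (limma, SE; adjusted p = 0.0788). The siSE arrays lay close together and below the control. KIF22 is the member with 2 probe sets, which gave nearly equal differences of -0.61 each. KIF4A, which also shortens and organises the central spindle with PRC1, read 6.96 with siSE1 and 6.78 with siSE2, against 7.39 on the control array. Both siSE values were lower, and the mean difference was -0.52 ± 0.15 (limma, SE; adjusted p = 0.122). A further probe set, annotated to KIF4A together with the closely related KIF4B and so not averaged, read 4.88 with siSE1 and 4.97 with siSE2, against 5.33 on the control array.

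The motors that act on microtubule ends at kinetochores also read lower on both siSE arrays. KIF2C, which removes tubulin from microtubule ends and helps to correct wrong attachments, read 7.05 with siSE1 and 6.72 with siSE2, against 7.34 on the control array. Its difference was -0.45 ± 0.17 (SE; limma, adjusted p = 0.205). KIF18A, which dampens the oscillation of aligned chromosomes, read 6.64 with siSE1 and 6.49 with siSE2, against 6.96 on the control array. Its siSE arrays lay closer to each other than to the control, and its difference was -0.40 ± 0.15 (SE; limma, adjusted p = 0.202).

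The motors of the central spindle and cytokinesis spanned nearly the whole range of the members. KIF14, which binds PRC1 and brings citron kinase to the midbody, read 6.30 with siSE1 and 6.46 with siSE2, against 7.28 on the control array. Its siSE arrays were close to each other and well below the control, and it differed by -0.90 ± 0.15 (limma, SE; adjusted p = 0.0359). KIF20B, a motor of late cytokinesis, read 6.54 with siSE1 and 6.48 with siSE2, against 7.02 on the control array. Its siSE arrays were the closest pair among the members, and its difference was -0.51 ± 0.14 (SE; limma, adjusted p = 0.116). KIF20A, which carries the chromosomal passenger complex with Aurora B to the central spindle, read 9.09 with siSE1 and 8.90 with siSE2, against 9.37 on the control array, with a difference of -0.38 ± 0.15 (limma, SE; adjusted p = 0.234). KIF23, which forms centralspindlin with RACGAP1, read 7.73 with siSE1 and 8.06 with siSE2, against 8.10 on the control array. Here siSE2 nearly met the control, and the difference of -0.21 ± 0.17 (limma, SE; adjusted p = 0.554) was the one member difference whose unadjusted 95% interval, from -0.59 to 0.17, included 0. Of all genes tested, 22.9% had a lower difference than KIF23, and 9.55% had a lower one than KIF20A, the next member.

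**Figure D3:**
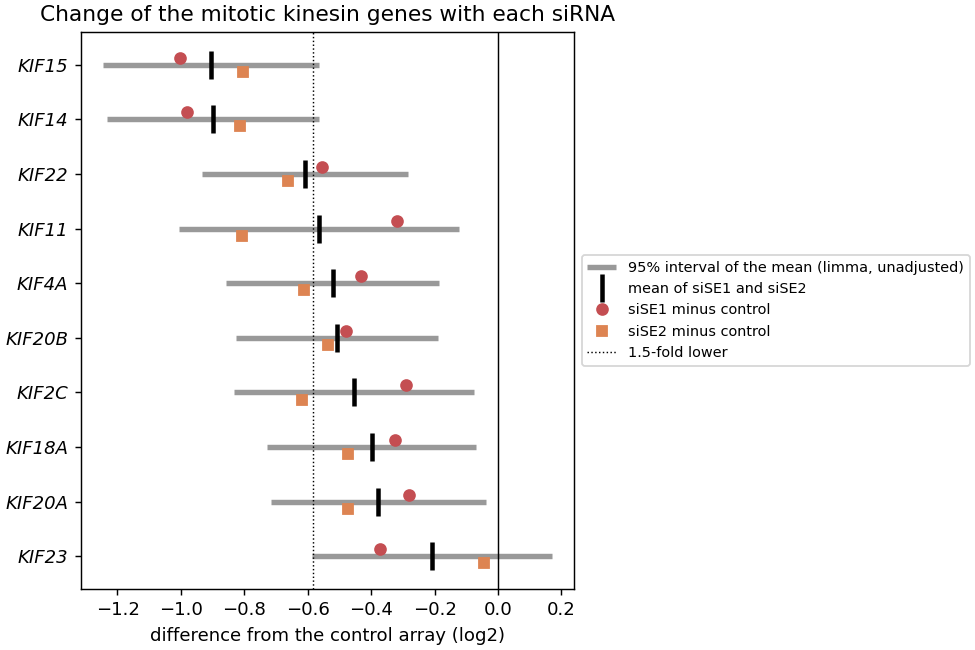
Differences of the mitotic kinesin genes from the control array (log2) with siSE1 (circles) and siSE2 (squares), their mean (black mark) and its unadjusted 95% interval from limma (grey bar); the dotted line marks 1.5-fold lower. KIF15 and KIF14 lie beyond that line with both siRNAs, and the interval of KIF23 alone crosses 0.

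The siSE arrays were also set side by side, with 1 array each and therefore no test. KIF14 and KIF15 were among the 3 members furthest below the control on either array. KIF11, KIF18A, KIF20A, KIF20B, KIF22, KIF2C and KIF4A were lower with siSE2, while KIF15, KIF14 and KIF23 were lower with siSE1; over all genes tested, siSE1 was below siSE2 for 51%. The differences of siSE1 minus siSE2 reached 0.49 for KIF11, 0.33 for KIF2C and -0.33 for KIF23, so that no member was 1.5-fold apart between the siRNAs, as 1.16% of all genes were. Against the control array, which both comparisons share, the median of the members was -0.40 with siSE1 and -0.61 with siSE2. Taken singly, 2 members were at least 1.5-fold lower with siSE1 (4.27% of all genes) and 6 with siSE2 (2.82% of all genes), namely KIF11, KIF14, KIF15, KIF22, KIF2C and KIF4A.

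Other kinesins of mitosis and the partners of the members had negative medians, and transport kinesins one nearer to 0. Of the 7 genes listed as other kinesins of mitosis 6 were tested and 0 passed (limma). At an unadjusted p under 0.05 (limma), 4 were lower, KIF24 among them, and 0 higher, and the median was -0.38. KIF24 differed by -0.44 ± 0.15 (SE, limma, adjusted p = 0.172) and KIF18B by -0.41 ± 0.14 (limma, adjusted p = 0.180). KIFC1, a minus-end-directed motor that gathers spindle poles, differed by -0.39 ± 0.15 (limma, adjusted p = 0.220). With the highest probe set per gene KIF18B differed by -0.26 (limma, adjusted p = 0.444) and KIFC1 by -0.42, and the median of the list was -0.31. Of 31 kinesins and kinesin subunits of interphase transport and other roles 26 were tested and 0 passed (limma; 5 lower and 1 higher at an unadjusted p under 0.05), with a median of -0.09, which was -0.05 with no filter and -0.19 when genes below the 50th percentile were left out. KIFAP3, the adaptor of the KIF3 motor, differed by -0.46 ± 0.16, KIFC3 by 0.44 ± 0.14 and the neuronal motor KIF5C by -0.42 ± 0.18. The difference between the mitotic and transport kinesins was not tested.

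Of 27 listed partners of the mitotic motors 26 were tested, and of these 1 fell and 0 rose, with a median of -0.37. On both siSE arrays 24 were below the control, as were 41.7% of all genes tested. CEP55, a midbody protein that recruits the abscission machinery, read 7.55 with siSE1 and 7.52 with siSE2, against 8.54 on the control array, and fell by 2.01-fold (SE 0.14 on the log2 scale; limma, adjusted p = 0.0223). TPX2, the spindle assembly factor that binds KIF15, read 8.83 with siSE1 and 9.23 with siSE2, against 9.73 on the control array, a difference of -0.70 ± 0.18 that did not pass (limma, adjusted p = 0.0937). ASPM, a spindle pole protein, differed by -0.62 ± 0.14 (limma, adjusted p = 0.0759). Partners mentioned above beside single members were PRC1 (-0.06 ± 0.14), RACGAP1 (-0.30 ± 0.14), AURKB (-0.36 ± 0.23) and CIT, the citron kinase gene (-0.47 ± 0.14). None of these passed, and CDK1 was the only tested partner with a positive difference, 0.07 ± 0.15. Of 25 genes of tubulins and other microtubule proteins 24 were tested and 0 passed (limma, 2 lower and 0 higher at an unadjusted p under 0.05). Their median was -0.03, or -0.07 with equal array medians and -0.01 with quantile normalization. MAPRE2, TUBGCP3 and TUBG1 differed by -0.40 ± 0.15, -0.39 ± 0.15 and -0.30 ± 0.14.

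**Figure D4:**
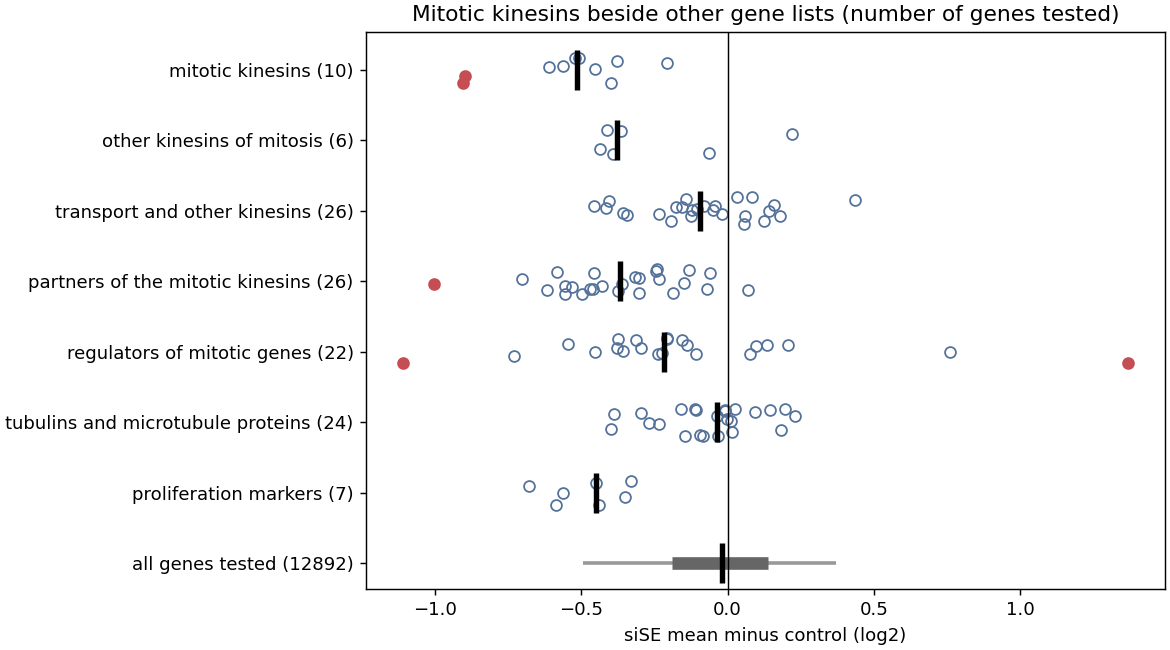
Differences of the mean of siSE1 and siSE2 from the control array (log2) for each tested gene of the lists, with filled points for genes that passed the test, open points for others and a black mark at the list's median; for all genes tested, the thick bar spans the 25th to 75th and the thin line the 5th to 95th percentile. The median of the mitotic kinesins, -0.51, lies furthest from 0 among the lists drawn. That of the tubulins and microtubule proteins, -0.03, lies close to that of all genes, -0.02.

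Of 24 listed regulators of mitotic genes 22 were tested; 1 fell and 1 rose, with a median of -0.22. MYBL1, a MYB-family transcription factor, read 6.60 with siSE1 and 6.70 with siSE2, against 7.76 on the control array. It fell by 2.16-fold (a log2 difference of -1.11 with SE 0.14, limma, adjusted p = 0.0207). Of the factors mentioned in the background, FOXM1 differed by -0.73 ± 0.15 (limma, adjusted p = 0.0608) and MYBL2, the B-MYB gene, by -0.30 ± 0.14 (limma, adjusted p = 0.318). E2F4, RBL1 and RBL2 differed by -0.14 ± 0.15, -0.38 ± 0.14 and -0.21 ± 0.18, and none of these factors passed. CDKN1A, the gene of p21, a protein that blocks cyclin-dependent kinases, read 9.71 with siSE1 and 9.85 with siSE2, against 8.41 on the control array, and rose 2.58-fold (SE 0.15 on the log2 scale; limma, adjusted p = 0.0147). With no filter none of CEP55, MYBL1 and CDKN1A passed (limma, adjusted p = 0.0927 for each). E2F5, a repressive E2F factor, differed by 0.76 ± 0.15 without passing (limma, adjusted p = 0.0539); after quantile normalization it passed (limma, adjusted p = 0.0296). All 7 proliferation markers were below the control on both siSE arrays, as were 41.7% of all genes tested. Their median was -0.45, with 0 passing (limma, 7 lower at an unadjusted p under 0.05). MKI67 read 8.62 with siSE1 and 8.47 with siSE2, against 9.22 on the control array (-0.68 ± 0.15, SE; limma, adjusted p = 0.0654), and TYMS and TOP2A differed by -0.59 ± 0.14 and -0.56 ± 0.14. These markers read lower alongside the mitotic kinesins, and their part in the kinesin result was not tested.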

How the data were processed

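The authors deposited 1 table of log2 values, 33297 probe sets by 3 arrays; per the submitters' processing notes it was made in Affymetrix Expression Console. The log2 scale was inferred from the values, 1.43 to 13.9; version, algorithm, background correction and build were not given in the sources used here. In the platform annotation, 19460 probe sets carried 1 gene, of which 19429 matched a RefSeq gene table by identifier; another 1754 carried several and 12083 were unnamed. Probe sets of a gene were averaged, and 5525 genes with a mean below the 30th percentile were left out. The 2 siSE arrays were compared with 1 control array by limma 3.58.1 (lmFit, eBayes; R 4.3.3), with Benjamini-Hochberg adjustment over the 12892 genes tested; "fell" and "rose" mean an adjusted p under 0.05. Errors are moderated SEs on 1 residual degree of freedom, which is the gap between siSE1 and siSE2. That gap holds any difference between the siRNAs along with noise, and no spread among controls. The control array is therefore assumed to vary as the siSE arrays do. The moderation added 8.46 prior degrees of freedom estimated over all genes tested. Each error and p-value therefore rests mostly on the spread shared over all genes, and less on that gene's own arrays. The fit and the motif search were tested on simulated data. The number of arrays limits the precision. For genes with several annotated starts, the one farthest upstream was searched for motifs.

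The members and lists were chosen with earlier results of these data known. All members were named, together with SLC45A3, ELK4, CDKN1A, MKI67 and, per list, each gene that passed and the 3 with the largest differences. Partners and regulators mentioned in the background or beside a member (PRC1, RACGAP1, AURKB, CIT, FOXM1, MYBL2, E2F4, RBL1, RBL2) were added. CDK1 was added as the only tested partner with a positive difference. Genes named only as marker examples (KLK3, KRT8, KRT18, HOXB13, PTPRC) come from the marker lists. The closing section gives the effect of other normalizations, filters, probe set rules and variance priors.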

Additional observations from a re-analysis of the deposited data

How the results depend on the processing

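Every mitotic kinesin kept a negative difference under quantile normalization, equal array medians and cyclic loess. The remaining settings could not change a sign. No filter, the 50th percentile filter (where KIF15 was not tested) and a variance prior with an intensity trend leave each difference as it was. Among the members, the highest probe set per gene altered only KIF22, whose probe sets were both lower. Leaving out either siSE array keeps the sign because all members were below the control on both. Of the 69 member values with a test under the alternative fits, 66 kept their side of the threshold and 3 lost the call. All 3 were values of KIF14 or KIF15, the members that had passed. Most of the 66 came from the 8 members that had not passed and so had no call to lose. Values without 1 siSE array have no test. With no filter 0 members fell (limma; 9 lower at an unadjusted p under 0.05; adjusted p = 0.124 for KIF15 and KIF14, which over all settings ran from 0.0234 and 0.0253). With the 50th percentile filter 0 fell, and 8 were lower at an unadjusted p under 0.05 (limma), beside 1205 of all 9209 genes then tested. KIF14 had an adjusted p of 0.0503 (limma), and 1 member was at least 1.5-fold lower with both siRNAs. The median of the members ran from -0.61 (siSE1 left out) to -0.40 (siSE2 left out), and the number at least 1.5-fold lower was 6 and 2 in the same order.

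Over all genes, 92 fell and 32 rose. With no filter 0 fell and 1 rose (1503 lower and 1148 higher at an unadjusted p under 0.05), and with the 50th percentile filter 20 and 15. The count that rose was 63 with quantile normalization, 21 with equal array medians and 52 with the intensity trend. In the other lists 2 genes fell and 1 rose; with no filter 0 did in either direction, CDKN1A, CEP55 and MYBL1 then having an adjusted p of 0.0927. The number that rose was 2 with quantile normalization, cyclic loess, the highest probe set and the intensity trend, where E2F5 passed as well; these alternatives for the lists were added after seeing the data. No paired analysis was possible because 1 control array cannot be paired with 2 siSE arrays.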
